A study of Mus musculus with 7 samples.

Results

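Il6st encodes gp130, the signal-transducing receptor subunit shared by the interleukin 6 family of cytokines, and Il6 encodes the cytokine interleukin 6 itself. These 2 genes were followed among the 203 genes with a symbol on a small mouse array. They were the spots annotated with those symbols, 1 spot each. Il6st was chosen by its measured spread and Il6 as the ligand of its receptor, so the levels of both are given as a description. The spread that chose it is the SD between samples of log2 values after quantile normalization, which makes the distribution of values equal on every array. On that scale Il6st had an SD of 1.03, the largest among genes above the median level, whereas on the deposited log2 scale the cyclin Ccna1 had 1.14 and Il6st 1.12. The array was hybridised with RNA of soleus muscle, a hindlimb muscle rich in slow fibres, in 7 samples of wild-type 129/SV mice kept as cage controls. All 7 form 1 group, with no treatment, no other genotype and no age stated. The titles give each sample its own number, with the code C16 for replicate 5 and C15 for the other 6, and do not say what the codes mean or that the samples were separate animals. P-values therefore measure only the spread between these samples, which may be technical.

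Interleukin 6 binds its own receptor chain, encoded by Il6ra, and the pair then recruits gp130. The receptor-bound JAK kinases phosphorylate gp130 and the transcription factor STAT3, which moves to the nucleus and switches on target genes. In skeletal muscle, interleukin 6 is known as a cytokine released by working fibres and as a signal acting on muscle stem cells and on fuel use. Il6ra makes a subunit that binds interleukin 6 alone, whereas gp130 also serves leukemia inhibitory factor, oncostatin M and other cytokines.

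Values are spot signals in percent of the array sum, that is of all spots except the 28S ribosomal RNA spot and the unnamed spot 1M. The 10th percentile of an array's 223 spots was taken as its floor, and it ranged from 0.02% to 0.13% between arrays. A gene was called above the floor where its signal exceeded 2 times that value, and 44 of the 203 genes did so on all 7 arrays. Of the 7 slow fibre markers listed, 2 were on the array, Myh7 and Mb, and both were above the floor on all 7. No background reading or detection call was used here. Precision is limited by how many arrays there are, by rounding and by closeness to the floor. Because the array sums are fixed, a value is a share, and a transcript that takes a larger share lowers those of the rest.

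Il6st was above the floor in every sample and differed widely between them. Its signal was 0.71% in replicate 1, 0.52% in replicate 2, 0.21% in replicate 3, 0.26% in replicate 4, 1.15% in replicate 5, 0.74% in replicate 6 and 1.89% in replicate 7. Replicates 3 and 4 were the lowest, replicates 5 and 7 the highest, and replicates 1, 2 and 6 lay between. The mean was 0.783% ± 0.583 (SD, n = 7), with a coefficient of variation of 74.5%, and the highest value was 9.0 times the lowest. The error in the order of neighbouring samples, such as replicates 1 and 6, cannot be estimated, since each sample was measured on 1 array.

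Measured against the floor, the order of the samples changed. Il6st stood at 57.5 times the floor in replicate 5, where the floor was lowest, and at 21.0 times in replicate 7. It stood at 12.3 times in replicate 6, 8.67 times in replicates 2 and 4, 5.46 times in replicate 1 and 4.2 times in replicate 3. Replicate 1 was now second lowest, below replicate 4, and replicate 3 was lowest by either measure. On each array, between 82.1% and 94.6% of the spots had a lower signal than Il6st. Rounding adds little to this spread, since 1 rounding half-step of 0.005% is 2.38% of the lowest Il6st value.

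The Il6 spot, in contrast, lay near the floor. Its signal was 0.12% in replicate 1, 0.09% in replicate 2, 0.05% in replicate 3, 0.04% in replicate 4, 0.03% in replicate 5, 0.06% in replicate 6 and 0.20% in replicate 7. Set against each array's floor, these values ran from 0.923 to 2.22 times, and only replicate 7 exceeded 2 times. In percent Il6 was lowest in replicate 5, but that array also had the lowest floor, and at 1.5 times the floor it matched replicate 2. The mean was 0.0843% ± 0.0597 (SD, n = 7). A value of 0.03% carries 1 significant digit and stands for anything between 0.025% and 0.035%. A signal near the floor does not show that the transcript was absent.

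Il6ra, the ligand-binding chain, was also near the floor. It gave 0.21% in replicate 1, 0.07% in replicate 2, 0.05% in replicate 3, 0.04% in replicate 4, 0.05% in replicate 5, 0.10% in replicate 6 and 0.15% in replicate 7, or 1.0 to 2.5 times the floor. Replicate 5 was the only array on which it passed 2 times the floor. Il6, Il6ra and Il6st were the 3 genes on the array out of 30 listed for the interleukin 6 family, so its other ligands, receptors, JAK kinases, STAT factors and SOCS inhibitors were not measured. Signals of different spots also depend on their primers and probes, so the 3 genes were compared with the floor and not with each other.

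**Figure D1:**
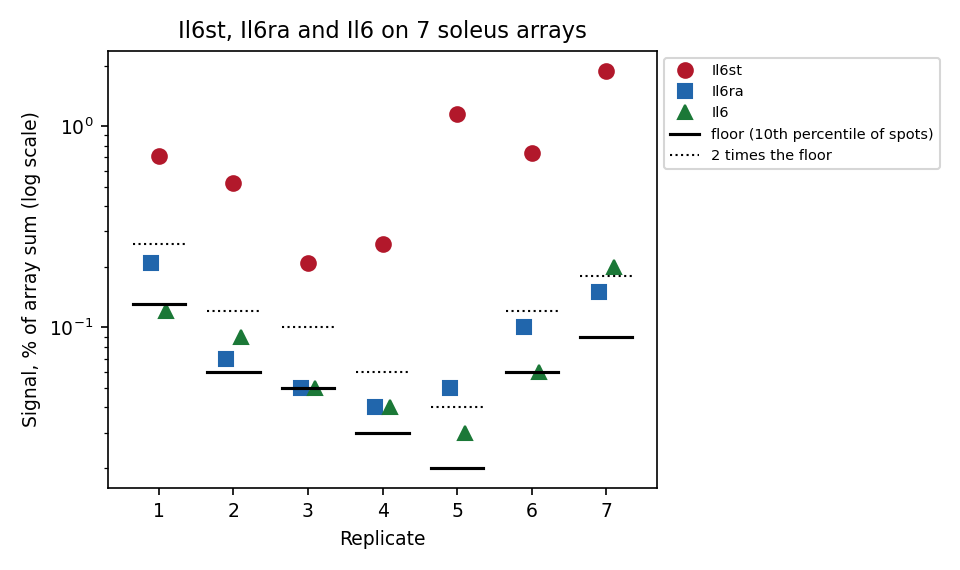
Signal of Il6st (circles), Il6ra (squares) and Il6 (triangles) in each of the 7 replicates, as a percent of the array sum on a log axis. Solid bars mark each array's floor and dotted bars 2 times the floor: Il6st is above the dotted bar on all 7 arrays, and Il6 and Il6ra on 1 array each.

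The spots next to Il6st did not share its range. Of the 8 spots within 1 step of it in number and letter, none reached its signal on any array. In replicate 7, where Il6st was at 1.89%, they ran from 0.11% to 0.16%, and in replicate 5, against 1.15%, from 0.02% to 0.12%. Around Il6, 10 spots within 2 steps were kept, those not above the floor on all 7 arrays. These spots had a median of 2.22 times the floor in replicate 7, the same as Il6 itself on that array. Their median was 2.25 times in replicate 5 and between 1.12 and 1.83 times in the other 5. In replicate 7, 5 of these 10 spots were at or above Il6, among them Tnc, the matrix protein tenascin C, which reached 0.45%. The part of the spot's surroundings in the Il6 value of replicate 7 was not tested.

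Il6 did not follow Il6st beyond the error of 7 samples. On the log2 scale after quantile normalization, Pearson's r was 0.600 (exact permutation p = 0.162, two-sided; n = 7). Spearman's rho was 0.321 (exact permutation p = 0.498). The value rested on replicate 7, the highest in both genes, since r was -0.145 without it and -0.258 once replicates 3 and 7 were dropped, whose Il6st values lie farthest from the median. For Il6ra, r with Il6st was 0.754 (exact permutation p = 0.0548) and rho 0.703 (exact permutation p = 0.0865), with r between 0.660 and 0.832 when 1 replicate was left out and 0.737 without replicates 3 and 7. On the 4 other scales used here, r ranged from 0.0662 to 0.734 for Il6 and from 0.321 to 0.852 for Il6ra. Adjusted over the 201 genes tested, neither passed (exact permutation, adjusted p = 0.427 and 0.275). The Il6ra spot lies next to that of Il6st and was above the floor on only 1 array. The part of this position in the r of Il6ra was not tested.

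To ask which transcripts followed Il6st from sample to sample, its r was computed with each other gene. Of 201 genes, 0 passed after Benjamini-Hochberg adjustment of the exact permutation p (0% called), and 36 had an unadjusted p under 0.05 (17.9% called), 12 of them with r above 0 (5.97%) and 24 below (11.9%). With Spearman's rho, 0 passed and 26 had an unadjusted p under 0.05. With 7 samples, the smallest exact p of r is 0.000198, and 1 gene alone at that limit would have an adjusted p of 0.0399. For rho the smallest exact p is larger, and 1 gene alone could not pass. The carbonic anhydrase Car3 kept 1 rank throughout and had no r on this scale.

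The gene most like Il6st was Igf2, insulin-like growth factor 2, a growth factor of fetal tissues and of regenerating muscle. Its signal was 0.43% in replicate 1, 0.34% in replicate 2, 0.15% in replicate 3, 0.20% in replicate 4, 0.67% in replicate 5, 0.38% in replicate 6 and 1.11% in replicate 7. As with Il6st, replicates 3 and 4 were the lowest and replicates 5 and 7 the highest, and Igf2 was above the floor on all 7 arrays. Pearson's r was 0.965 (exact permutation p = 0.00159, adjusted p = 0.124) and rho 0.893 (exact permutation p = 0.0123), with r at 0.896 without replicates 3 and 7 and from 0.929 to 0.987 with 1 replicate left out. Of the 5 scales tried, Igf2 passed on 3: equal medians (r = 0.983, exact permutation, adjusted p = 0.0267; 1.49% of genes called), floor subtracted (r = 0.988, adjusted p = 0.0373; 3.19% called) and position trend removed (r = 0.981, adjusted p = 0.0401; 0.99% called). It did not pass on the deposited scale (r = 0.992, exact permutation, adjusted p = 0.0802). Earlier results of these data had already shown Igf2 to vary with Il6st, so these tests are not independent of that knowledge.

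A measure that no scaling factor per array can change gave the same gene. The log2 ratio of Il6st to Igf2 within an array had an SD of 0.20 over the 7 arrays, whereas log2 Il6st alone had an SD of 1.12 as deposited. That was the smallest ratio SD among the 202 other genes. Next came Angpt2 at 0.33, Ang at 0.37, Ccna1 at 0.41 and Csf2rb2 at 0.54. These are angiopoietin 2, a ligand of the endothelial receptor Tek, angiogenin, a secreted ribonuclease, cyclin A1, and a beta chain of the interleukin 3 receptor. The measure favours genes that vary as widely as Il6st, and it was chosen after the values were seen.

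The other genes with the highest r with Il6st lay partly at the floor. Csf2rb2 had r = 0.941 and was above the floor on 3 of 7 arrays. Ang2, an angiogenin family member, had r = 0.926 and was above it on 2 arrays. Igfbp2, an insulin-like growth factor binding protein, had r = 0.924 and was above it on 1 array, and its spot lies next to that of Il6st. Ccna1 had r = 0.889 and was above the floor on 5 arrays. Their adjusted p was 0.124 each (exact permutation), and r kept its sign on all 5 scales, with a lowest value of 0.675, for Igfbp2 in the deposited values.

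Ang and Angpt2, which like Igf2 and Ccna1 were known from earlier results of these data to vary with Il6st, gave r = 0.873 and 0.732. Ang was above the floor on 2 arrays and Angpt2 on 5. Angpt2 was at 0.21% in replicate 1, 0.17% in replicate 2, 0.09% in replicates 3 and 4, 0.29% in replicate 5, 0.31% in replicate 6 and 0.45% in replicate 7. Again replicates 3 and 4 were the lowest and replicate 7 the highest, with replicate 6 just above replicate 5. With the floor subtracted, 6 of 188 genes passed (3.19% called): Igf2, Ang2, Ang, Ccna1, Angpt2 and Csf2rb2, with r from 0.933 to 0.988 and adjusted p from 0.0373 to 0.0497 (exact permutation). On this scale low values depend on rounding and on a fill-in for signals not above the floor. In replicate 3, where the floor was 0.05%, Ang and Ang2 were at 0.06% and Csf2rb2 at 0.05%.

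Among genes above the floor on all arrays, Igf2 was followed by Igfbp6, which encodes a binding protein with a preference for insulin-like growth factor 2. Igfbp6 was at 0.57% in replicate 1, 0.49% in replicate 2, 0.36% in replicates 3 and 4, 0.66% in replicate 5, 0.80% in replicate 6 and 1.02% in replicate 7. It shared the low values of replicates 3 and 4 and the high value of replicate 7, over a narrower range than Il6st. Its r was 0.817 (exact permutation p = 0.0238, adjusted p = 0.225), 0.775 as Spearman's rho (exact permutation p = 0.0508) and 0.729 without replicates 3 and 7. Ttn, titin, the giant spring protein of the sarcomere, had r = 0.789 (exact permutation p = 0.0341, adjusted p = 0.254), but 0.257 as deposited. Pole2, a subunit of DNA polymerase epsilon, had r = 0.782 and -0.140 without replicates 3 and 7. The 28S ribosomal RNA spot, the fifth of this group, had r = 0.729.

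**Figure D2:**
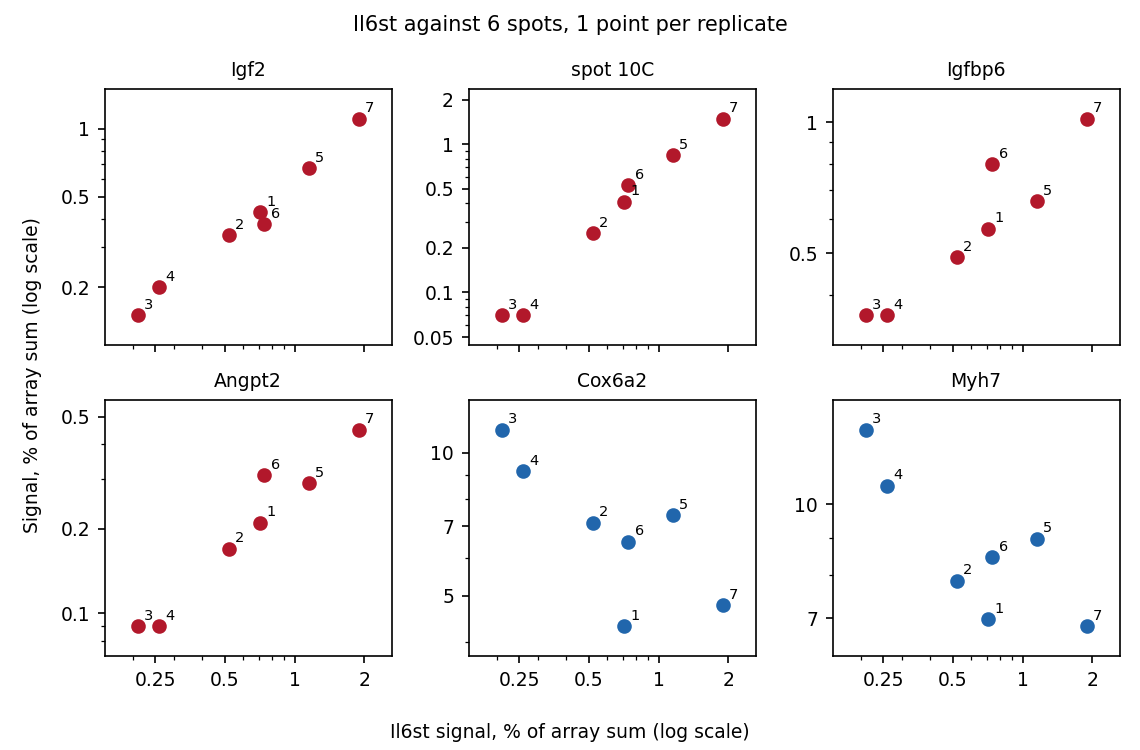
Signal of Il6st on the x axis against that of Igf2, the unnamed spot 10C, Igfbp6, Angpt2, Cox6a2 and Myh7 on the y axes, as percent of the array sum on log axes, with 1 point per replicate and its number. Replicates 3 and 4 sit at the low end of Igf2, spot 10C, Igfbp6 and Angpt2 and at the high end of Cox6a2 and Myh7.

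Insulin-like growth factor genes lay on both sides of 0. This group of 11 genes was drawn up after the values were seen and is described without a test. With Il6st, 7 of the 11 had r above 0 and 4 below, with a median of 0.0115, against -0.128 over the 201 genes. In 5 of the 11, Igf1, Igf2, Igfbp1, Igfbp2 and Igfbp6, r was above 0 on all 5 scales, as it was in 43 of the 201 genes (21.4%). Igfbp1 was above the floor on 0 arrays, and its r was -0.354 without replicate 7. Igf1 had r = 0.860 and was above the floor on 3 arrays. Igf2r, the receptor that clears insulin-like growth factor 2, had r = -0.880 after quantile normalization and 0.146 as deposited. Igfbp5 had -0.830 and 0.266, so their direction depended on the scale.

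Other cytokine receptors lay on both sides of 0, and the direction of STAT3 targets depended on the scale. Both groups were also drawn up after the values were seen. Of 7 receptors of the same structural class, including Il6ra, the granulocyte colony receptor Csf3r, the erythropoietin receptor Epor and the growth hormone receptor Ghr, 0 were above the floor on all arrays. Their r ranged from -0.861 for Csf2ra to 0.941 for Csf2rb2, with 4 of 7 below 0. Of 8 genes known as STAT3 targets, among them Junb, Ccnd1, Vegfa and Timp1, 0 were above the floor on all arrays. Their r ranged from -0.779 for Mmp2 to 0.0420 for Junb, with 6 of 8 below 0, while 119 of the 201 genes were below 0 (59.2%). With equal medians all 8 were below 0, with a median of -0.553, where 118 of 202 genes were below 0 and the median over all genes was -0.201. With the position trend removed, 7 of 8 were below 0, against 111 of 202 genes. In the deposited values 0 of the 8 were below 0, against 13.9% of all genes, and their median was 0.189, against 0.298 over all genes.

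Among the contractile genes, Myh7 alone stayed opposite to Il6st on all 5 scales, and no member passed the test. Over all genes, 17 of 201 stayed below 0 on all 5 scales (8.46%), as did 5 of the 42 above the floor. All 7 contractile genes on the array were above the floor, and 5 had r below 0 (71.4%), with a median of -0.300. That is close to the 29 of 42 genes above the floor with r below 0 (69.0%), whose median was -0.393. Myh7, the slow myosin heavy chain, was at 6.97% in replicate 1, 7.87% in replicate 2, 12.64% in replicate 3, 10.60% in replicate 4, 8.98% in replicate 5, 8.48% in replicate 6 and 6.82% in replicate 7. Replicates 3 and 4, lowest in Il6st, were the highest in Myh7, and replicate 7, highest in Il6st, was the lowest. Its r was -0.645 (exact permutation p = 0.133, adjusted p = 0.406) with rho at -0.498 (exact permutation p = 0.267), and -0.811 in the deposited values (exact permutation, adjusted p = 0.475). With equal medians it was -0.0434. Ttn was the only one of the 7 with r above 0 on all 5 scales, against 43 of the 201 genes (21.4%). Myh4, the fast heavy chain IIb, had r = -0.558 and 0.631 as deposited, and Mb, myoglobin, 0.0181 and -0.155. With equal medians and with the position trend removed, 2 of the 7 were below 0, and the medians were 0.0985 and 0.0798, so the direction of the list depended on the scale.

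Respiratory chain genes included 2 that kept a negative sign throughout. Cox6a2, the muscle form of a cytochrome oxidase subunit, was at 4.31% in replicate 1, 7.13% in replicate 2, 11.20% in replicate 3, 9.14% in replicate 4, 7.40% in replicate 5, 6.50% in replicate 6 and 4.77% in replicate 7. As for Myh7, replicates 3 and 4 were the highest. Replicates 1 and 7 were the lowest, although replicate 1 was in the middle for Il6st. Its r was -0.766 (exact permutation p = 0.0476, adjusted p = 0.266), with rho at -0.802 (exact permutation p = 0.0476), and -0.829 without replicates 3 and 7, from -0.774 to -0.0510 over the 5 scales. Cox5b, another subunit, had r = -0.699, and -0.120 without replicates 3 and 7. Over all genes, 17 of 201 were below 0 on all 5 scales (8.46%). Cox4i1, a form of subunit IV encoded in the nucleus, had r = 0.204, and -0.326 as deposited. Cox8a, a further subunit that was not in the list, had r = -0.923 (exact permutation p = 0.00476, adjusted p = 0.124) and 0.00103 with equal medians.

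Fatty acid genes stood below 0 after quantile normalization and above it as deposited. Of the 13 on the array, 12 had r below 0, with a median of -0.477. Over all genes, 119 of 201 were below 0 (59.2%), with a median of -0.128. Among genes above the floor on all arrays, 29 of 42 were below 0 (69.0%), with a median of -0.393. In the deposited values only 1 of the 13 was below 0, against 13.9% of all genes, and the median was 0.443, against 0.298 over all genes. Fabp3, the fatty acid binding protein of heart and muscle, was the only one below 0 on all 5 scales, against 17 of the 201 genes (8.46%). It had r = -0.810 (exact permutation p = 0.0256, adjusted p = 0.225), rho = -0.607 (exact permutation p = 0.167) and -0.269 without replicates 3 and 7. Its signal was 0.28% in replicate 7, the lowest of the 7 samples, and 0.61% in replicate 1, the highest. The lipase Lpl had r = -0.655 and 0.540 as deposited, and Hadh, a dehydrogenase of beta-oxidation, -0.670 and 0.750. Ucp3, uncoupling protein 3, was the only one above 0, at 0.271, and it was -0.689 without replicate 7.

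The median r of the glucose genes was near that of all genes as deposited, but less so on other scales. Of 11, 8 had r below 0 (72.7%), against 59.2% of all genes and 69.0% of those above the floor. Their median was -0.343, and 0.291 in the deposited values, where that over all genes was 0.298. Pgk1, the glycolytic phosphoglycerate kinase, had the lowest r of all genes at -0.929 (exact permutation p = 0.00317, adjusted p = 0.124), rho = -0.955 (exact permutation p = 0.00317). Yet its deposited signal stayed between 0.36% and 0.47%, with r = -0.0800, and with equal medians r was 0.0282. Gapdh, at -0.687 and -0.721 as deposited, was 0.0171 with equal medians. Aldoa, muscle aldolase, had r = 0.440, and -0.132 with the position trend removed. Slc2a3, a glucose transporter, was the only one of the 11 above 0 on all 5 scales, against 43 of the 201 genes (21.4%). It had r = 0.719 and was above the floor on 3 arrays. Of the genes above the floor with the lowest r, Slc2a2, the low-affinity glucose transporter, had -0.883 and 0.235 as deposited, and Fgfr2, a fibroblast growth factor receptor, -0.783 and -0.488.

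Over the 29 metabolic genes of these 3 lists, 23 had r below 0, against 119 of the 201 genes (59.2%), and 4 had an unadjusted exact p under 0.05, against 17.9% of all genes. The metabolic median was -0.409 after quantile normalization and 0.412 as deposited, where the median over all genes also moved, from -0.128 to 0.298. The metabolic genes as a group therefore had no direction with Il6st that held across scales. Only 3 of the 29, Fabp3, Cox5b and Cox6a2, stayed below 0 on all 5, against 17 of the 201 genes (8.46%).

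**Figure D3:**
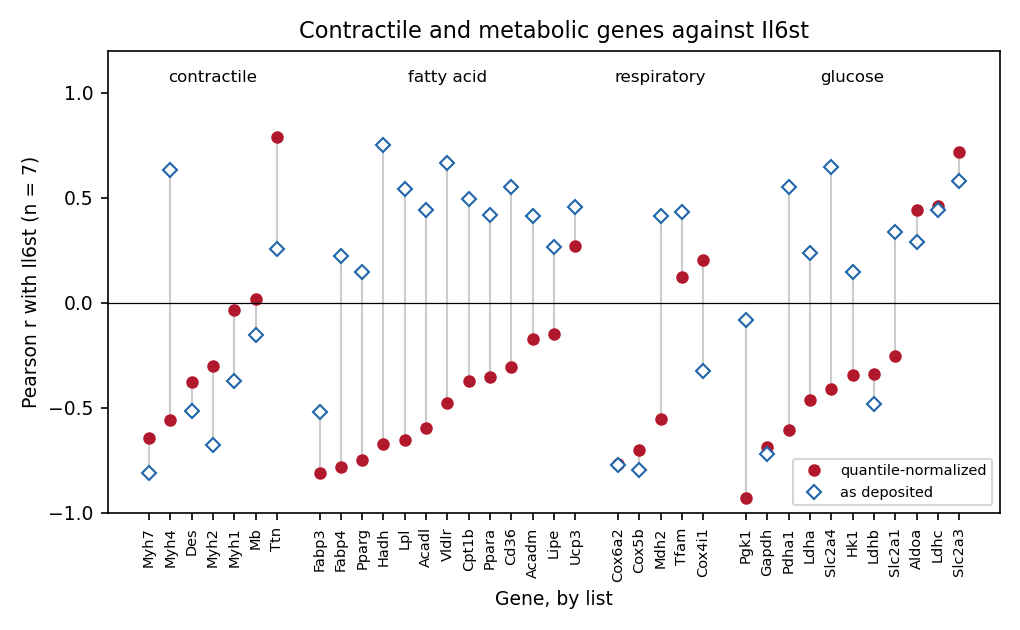
Pearson r with Il6st over the 7 samples for each contractile, fatty acid, respiratory and glucose gene on the array, quantile-normalized (filled circles) and as deposited (open diamonds), joined by a line per gene. Of the 13 fatty acid genes, 12 lie below 0 on the first scale and 1 on the second, while Myh7, Cox6a2 and Cox5b lie below 0 on both.

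**Figure D4:**
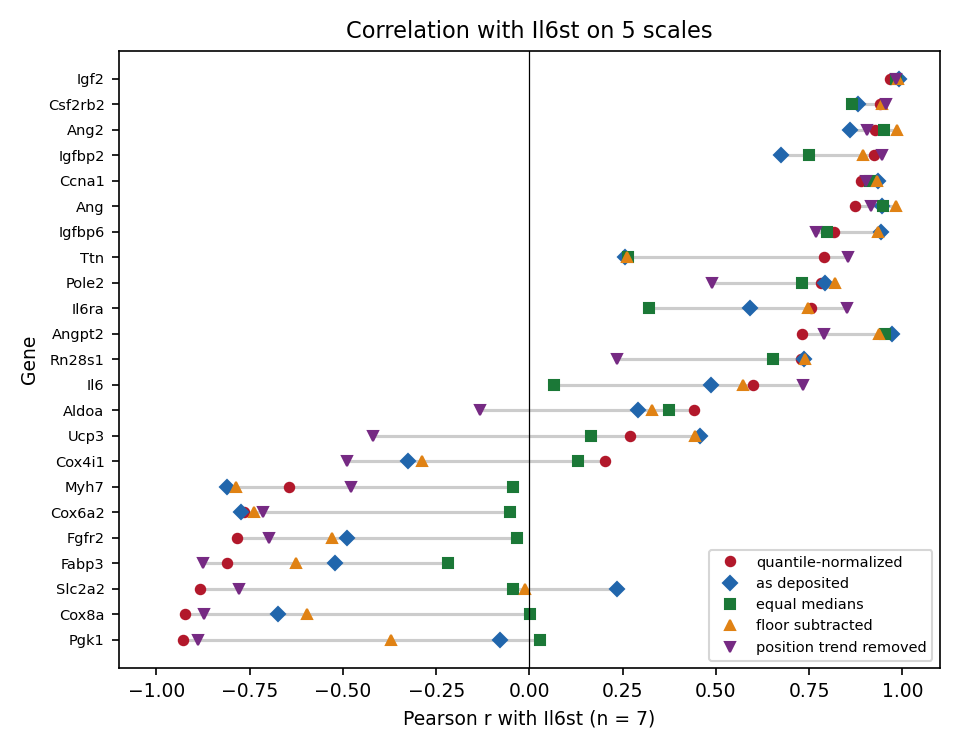
Pearson r with Il6st (n = 7) for the 23 genes singled out, 1 row per gene, with 1 symbol per scale and a grey line over their range. Igf2 stays between 0.965 and 0.992 on all 5, whereas Pgk1 ranges from -0.929 to 0.0282.

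Markers of other cell types gave no uniform picture. Of 8 endothelial markers, 5 were on the array, with a summed signal between 0.45% and 1.06%. Cdh5, the endothelial cadherin, was the only one of them above the floor on all arrays, with r = 0.494, and 0.845 as deposited. Flt1, Pecam1 and Cdh5 had r above 0 on all 5 scales, as 43 of the 201 genes did (21.4%), and Kdr and Tek did not. Of the 5 adipocyte markers, Fabp4 and Pparg were measured, with r = -0.782 and -0.749, and 0.224 and 0.147 as deposited. Fabp4 was above the floor on 7 arrays and Pparg on 0. The 3 satellite cell markers, Myf5, Myod1 and Myog, had r between -0.133 and 0.0654, with a median of -0.717 with equal medians. Myf5 and Myog were above the floor on 0 arrays and Myod1 on 1. Their summed signal ran from 0.09% to 0.73%, while the floor itself ran from 0.02% to 0.13%. Of 3 matrix markers, Fn1 and Pdgfra were below 0, at -0.782 and -0.522, but at 0.199 and 0.130 as deposited. Tnc was above 0 on all 5 scales. Fn1 was above the floor on 0 arrays, Pdgfra on 3 and Tnc on 4. Il1b was the only one of 8 leukocyte markers on the array, near the floor on 6 arrays. Its r was 0.169 (exact permutation p = 0.600), but 0.875 without replicate 1, and rho was 0.805 (exact permutation p = 0.0333, adjusted p = 0.378). With equal medians its r was -0.579. The part of any cell type in the range of Il6st was not tested.

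Array properties followed Il6st less closely than Igf2 did, in a comparison that was not itself tested. The r of Il6st with the log2 signal of the 28S spot, taken here as deposited, was 0.657 (exact permutation p = 0.114, adjusted over 4 array measures p = 0.433). It was 0.290 with the floor, 0.535 with the array median and -0.285 with spot 1M (exact permutation, adjusted p = 0.539, 0.433 and 0.539). Spearman's rho was 0.536, 0.342, 0.418 and -0.393 for the 28S spot, floor, median and spot 1M (exact permutation, adjusted p = 0.459 each). Without replicates 3 and 7, r was 0.555 with the 28S spot. With Il6st also as deposited, r with the 28S spot was 0.736 (exact permutation p = 0.0611, adjusted p = 0.244) and rho 0.607. On that scale r of Il6st with Igf2 was 0.992. The part of array properties in the range of Il6st was not tested. Leaving out replicate 5, the only sample with the code C16, left r at 0.978 for Igf2, -0.629 for Myh7 and -0.748 for Cox6a2.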

How the data were processed

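Total RNA from cryosections of the soleus belly was copied into radioactive cDNA from gene-specific primers, per the labels' protocols, so each array has 1 colour. The authors deposited 1 linear ratio per spot and sample; how images and background were treated is not stated in the sources used here. Without spot 1M and the 28S spot, each column sums to between 99.9% and 100.02%, so a deposited ratio was read as a share of the array and printed as a percent. Of 223 spots, 205 have a gene symbol in the platform annotation and 18 have none; 2 spots of 1 gene were averaged on the log2 scale. No genome build is named, so no coordinates are given.

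Levels are as deposited. For r, values were quantile-normalized over all spots and log2-transformed with no pseudocount, and the exact two-sided test enumerated 5040 pairings of samples, with Benjamini-Hochberg adjustment at 0.05 (Python 3.11.15, numpy 2.4.6). Alternatives were the deposited values, equal medians, the floor subtracted, a quadratic trend in spot position removed, Spearman's rho, a low-value filter and each replicate left out. With the floor subtracted, values not above the floor were set to the array's smallest positive difference. Genes then equal on every array had no r, which left 188. The correlation test was tested on simulated data.

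The members, lists and rules were chosen with earlier results of these data known. The genes named are the interleukin 6 family on the array, the 5 with the highest r with Il6st over all genes, the 5 highest and 5 lowest above the floor on all arrays, the highest and lowest above-floor member of each list, and Igf2, Ccna1, Angpt2 and Ang. Other names are list members, chosen after their values were seen.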

Additional observations from a re-analysis of the deposited data

Results flagged for a closer look

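A spot without a gene symbol carried a signal that followed Il6st. Spot 10C was at 0.41% in replicate 1, 0.25% in replicate 2, 0.07% in replicates 3 and 4, 0.84% in replicate 5, 0.53% in replicate 6 and 1.49% in replicate 7, above 2 times the floor on 6 of the 7 arrays. Its r with Il6st was 0.967 (exact permutation p = 0.000794, adjusted over 17 unnamed spots p = 0.0135), and rho was 0.964 (exact permutation, adjusted p = 0.0472). Without replicates 3 and 7, r was 0.952, and it was 0.961 or higher on the other 4 scales. The spot was noticed because of this pattern, so the test is not independent of the choice. Named genes were adjusted over 201 genes, where Igf2 at r = 0.965 did not pass (exact permutation, adjusted p = 0.124). Adjusted p-values of the spot and of named genes are therefore not comparable. The sources used here do not say what the spot measures. It is not next to Il6st on the array.

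None of the 24 genes examined, Il6st and the 23 singled out, had 1 sample far from the other 6 on the quantile-normalized scale. About 1 in 20 would by chance. Other list members were not examined. Among them, Il1b had a log2 value of -8.70 in replicate 1 and of -10.74 to -10.60 in the other replicates.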

How the results depend on the processing

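The range of Il6st, 3.0 log2 units from lowest to highest sample, was between 2.68 and 3.49 on the 4 other scales and between 1.92 (without replicate 7) and 3.0 with 1 replicate left out. The count of genes that passed with Il6st, 0, was 3 of 202 with equal medians (Igf2, Fosl1 and Adora3), 6 of 188 with the floor subtracted and 2 of 202 with the position trend removed (Igf2 and Itga8). It was 0 as deposited, with Spearman's rho, among above-floor genes and with any 1 replicate left out (0 to 0). For rho, and for r with 1 replicate left out, 1 gene alone could not pass whatever its value. Those counts of 0 therefore say little. Of the genes that passed, Fosl1 (r = -0.946) and Adora3 (r = -0.919) ran opposite to Il6st and were above the floor on 0 arrays. Itga8 (r = 0.959) was above it on 1 array. Il6 with Il6st gave r between -0.145 and 0.714 with 1 replicate left out and did not pass in any setting. The contractile median r, -0.300, was 0.0985 with equal medians and 0.0798 with the position trend removed, and between -0.416 and -0.141 with 1 replicate left out. The metabolic median r, -0.409, was 0.412 as deposited, 0.130 with equal medians, 0.324 with the floor subtracted and -0.596 among above-floor members, and between -0.592 and -0.227 with 1 replicate left out.

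Among single genes, the sign of r turned for Pgk1 (0.0282) and Cox8a (0.00103) with equal medians, and for Slc2a2 (0.235) and Cox4i1 (-0.326) as deposited. Cox4i1 turned also with the floor subtracted (-0.288), with the position trend removed (-0.489) and without replicate 4 (-0.241; 0.460 without replicate 2). With the position trend removed it turned for Ucp3 (-0.420) and Aldoa (-0.132), and Ucp3 turned also as Spearman's rho (-0.126) and without replicate 7 (-0.689; 0.542 without replicate 5). The cause was not tested. No paired analysis was possible because there is 1 group. Values within 2 times the floor, those of Il6 and Il6ra on 6 of 7 arrays, limit what can be said of both genes.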
